A study of Mus musculus with 8 samples.

Results

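Nfe2l2, Keap1, Nqo1, Hmox1, Gclc, Gclm, Gsr, Txnrd1, Srxn1 and Prdx1 are 10 genes of the NRF2 redox and glutathione programme. They were taken by symbol from the 55421 gene entries of the count table, and all 10 were found and passed the filter on low counts that left 15137 genes for testing. Slc7a11, which encodes the transporter subunit of the cystine importer xCT, was described beside them, because the question was whether its higher level in knockout cells went with higher levels of these genes. Poly(A) RNA was counted from its 3′ ends with QuantSeq libraries, so a count stands for a transcript end and not for transcript length.

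Every library came from E14 mouse embryonic stem cells, a blastocyst-derived line of 129/Ola background, grown on gelatin with 15% serum, 100 U/ml LIF and 0.1 mM 2-mercaptoethanol, a thiol reductant that all groups received. The KO group was E14 cells lacking the miR-290-295 microRNA cluster, and WT cells were untreated E14 cells that retained it. The siTfap4 group was KO cells given 5 nM of an siRNA pool against Tfap4 for 36 h, and the siNeg group was KO cells given the negative control pool at that dose and time. Each of the 4 groups had 2 libraries that the labels call biological duplicates. P-values set a difference against the spread between duplicates, estimated over all 8 libraries unless another fit is named. The series' design text describes KO and WT as 1 preparation and sequencing set and the transfected cells as another. The titles of the untreated libraries also carry suffixes, which differ within each group, and KO replicate 2 and WT replicate 1 share 1 of them. What they stand for is not given in the sources used here. No group restored the cluster or transfected WT cells, and whether the KO duplicates were separate clones is not given in the sources used here.

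NRF2, encoded by Nfe2l2, is a transcription factor whose protein is bound by KEAP1 and passed to a CUL3 ubiquitin ligase for degradation. Oxidants and electrophiles modify KEAP1 cysteines, NRF2 accumulates, pairs with small MAF proteins and binds antioxidant response elements near genes for glutathione synthesis, thioredoxin reduction and quinone detoxification. This control acts on protein stability, which mRNA counts do not measure. Slc7a11 is a known target of both NRF2 and ATF4, and the cystine it imports supplies cysteine for glutathione.

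The mature microRNAs shown, all 3 from the cluster, share 1 seed (bases 2 to 8, in capitals) and are given because a match to it was sought in the genes described. The sequences are from RefSeq on GRCm38.p6, plus strand, at chr7:3218968-3218989, chr7:3220691-3220712 and chr7:3220815-3220837.
mmu-miR-291a-3p: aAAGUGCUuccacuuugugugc
mmu-miR-294-3p: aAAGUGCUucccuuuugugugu
mmu-miR-295-3p: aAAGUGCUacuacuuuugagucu

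The hexamer GCACTT, complementary to bases 2 to 7, was found in the longest annotated 3′ UTR of 1 of the 10 members, Keap1. Of 12780 tested genes with such a UTR, 34.7% held it and 18.3% held the longer AGCACTT. The Keap1 match lay directly after the stop codon at chr9:21230687-21230701 (GRCm38, minus strand). Slc7a11 held 2 matches in its 3′ UTR, at chr3:50369422-50369444 and chr3:50367058-50367081 on the minus strand. Capitals mark the bases paired with the seed and its neighbours. A match is a description and not a shown site of binding.
Keap1 site: AGCACTTggaatacc
Slc7a11 site 1: attcttatAGCACTTctttatct
Slc7a11 site 2: gggttctgAGCACTTTgtgtgatg

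RefSeq promoters of 300 bases, 250 before and 50 after the start, were given for 7 members. The core of the antioxidant response element, TGACNNNGC on either strand, stood in 5 of their 9 promoters, those of Nfe2l2, Gclm, Srxn1 and Prdx1 and 1 of the 3 of Txnrd1, against 12.4% of all 32851 promoters and 14.1% of the promoters of tested genes. None was found in the windows of Keap1, Nqo1 or Slc7a11. The stretches are shown because they carry that core, in capitals, and lie at chr2:75704865-75704913 (minus strand), chr3:122245393-122245461, chr10:82859084-82859152, chr2:152105522-152105573 and chr4:116685436-116685504 (plus strand) of GRCm38.p6. Where the capitals begin with GC and end with TCA, the core is on the opposite strand.
Nfe2l2 promoter: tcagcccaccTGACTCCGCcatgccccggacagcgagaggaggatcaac
Gclm promoter: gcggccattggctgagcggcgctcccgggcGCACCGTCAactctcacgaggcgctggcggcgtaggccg
Txnrd1 promoter: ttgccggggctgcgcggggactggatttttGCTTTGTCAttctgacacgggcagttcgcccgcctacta
Srxn1 promoter: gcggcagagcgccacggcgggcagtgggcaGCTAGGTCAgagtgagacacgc
Prdx1 promoter: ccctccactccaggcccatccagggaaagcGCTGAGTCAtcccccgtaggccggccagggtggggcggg

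Libraries held 8326675 to 12726123 counts and detected 19271 to 21183 genes. The siTfap4 libraries were the lowest in both, with 8326675 and 8829051 counts and 19271 and 19432 genes. Those of siNeg had 11395211 and 10795092 counts and 21083 and 20264 genes. The 7 plus-strand entries of the cluster held 0 counts in all 6 libraries of KO cells, against 88 and 39 in WT cells. Tfap4, the siRNA target, had 12.4 and 15.8 CPM (counts scaled to a common library total with TMM factors) in siTfap4 and 34.4 and 37.4 in siNeg, and 49.0 and 42.1 in KO against 19.7 and 16.4 in WT. The 7 embryonic stem cell markers summed to 3194 and 3154 CPM in KO, 2742 and 2896 in WT, 2061 and 2217 in siTfap4 and 3177 and 2991 in siNeg, with none at 0. The 11 primitive endoderm markers, led by Sparc and Lamb1, summed to 390.5 and 528.5 in KO, 612 and 807 in WT, 754.5 and 563 in siTfap4 and 522 and 507 in siNeg, with none at 0. The 7 fibroblast markers summed to 11.7 and 22.4 in KO, 30.9 and 54.6 in WT, 9.94 and 7.67 in siTfap4 and 13.6 and 11.4 in siNeg, and Col3a1 and Postn were at 0 in every library. The 6 trophectoderm markers summed to 6.01 to 15.4 CPM. In such bulk samples fewer cells of a type and less RNA per cell cannot be told apart.

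In KO cells 4 of the 10 genes rose relative to WT. None fell by edgeR, by DESeq2 or at an unadjusted p below 0.05. The 4 were the regulators Nfe2l2 and Keap1 and the target genes Nqo1 and Srxn1, with folds of 1.78 to 2.60. The genes of glutathione synthesis, Gclc and Gclm, and Hmox1, Txnrd1, Prdx1 and Gsr did not pass the test. Among all 15137 genes 9.95% were called (edgeR quasi-likelihood test, Benjamini-Hochberg adjusted p below 0.05 over all genes), 5.99% higher and 3.96% lower. The list counts given below for KO against WT are to be read beside these shares. The median log2 fold change of the 10 was 0.65, with 8 above 0, and that of all tested genes was -0.01. The count of 4 was 2 without KO replicate 1, 2 without KO replicate 2, 3 without WT replicate 1 and 1 without WT replicate 2. Slc7a11 rose 17.4-fold in the same comparison.

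Some markers of other cell types differed between KO and WT. Sparc made up most of the primitive endoderm sum and had 297.4 and 454.1 CPM in KO and 298.3 and 511.5 CPM in WT (log2 fold change -0.11, adjusted p = 0.873). Of the 11 markers, 7 were called lower in KO by edgeR, and they are named after their values were seen. The 7 were Dab2 (20.9-fold lower), Col4a1 (15.6-fold), Gata6 (10.2-fold), Col4a2 (9.05-fold), Sox17 (6.45-fold), Lama1 (4.76-fold) and Lamb1 (2.11-fold). Dab2, for example, had 1.53 and 0.99 CPM in KO, against 28.2 and 25.3 CPM in WT. The fibroblast markers Thy1 (2.55-fold, adjusted p = 0.0244) and Col1a1 (4.59-fold, adjusted p = 0.0432) were also called lower in KO. Col1a1 had only 5 and 4 counts in KO, against 21 and 17 in WT, and Pdgfrb, also tested, was not called. The trophectoderm marker Krt7 was called 2.52-fold higher (adjusted p = 0.0427), while Eomes, Hand1 and Gata3 were tested and not called. These marker calls were not examined under other settings. The part of these differences in the results for the 10 genes, Slc7a11 and the lists was not tested.

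**Figure D1:**
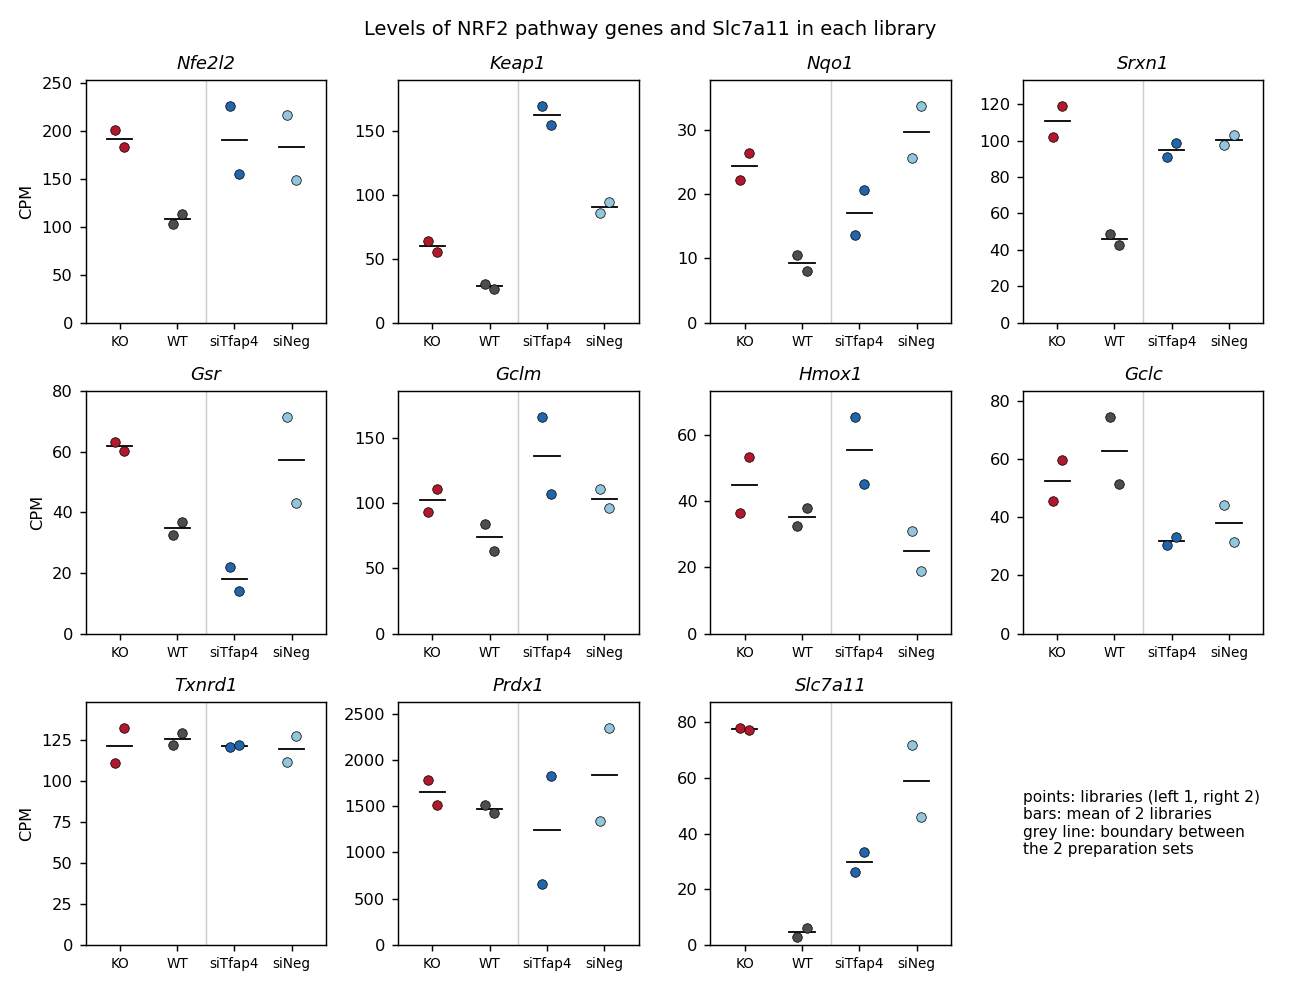
Level of each gene in CPM (vertical axis, from 0) in the 2 libraries of each group (points) with the group mean (bar), in the order KO, WT, siTfap4, siNeg. Nfe2l2, Keap1, Nqo1, Gclm, Gsr, Srxn1, Prdx1 and Slc7a11 lie higher in both KO libraries than in both WT libraries. The Hmox1, Gclc and Txnrd1 libraries of KO and WT overlap. Gsr, Nqo1 and Slc7a11 lie lower in both siTfap4 libraries than in both siNeg libraries, and Keap1 and Hmox1 higher. With 2 libraries a group such separation can arise by chance and is a description.

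Nfe2l2 (chr2:75675513-75704641, minus strand, GRCm38) had 200.8 and 183.3 CPM in KO, against 103.0 and 113.3 CPM in WT. Both KO libraries lay above both WT libraries. The log2 fold change was 0.83 (SE 0.25, adjusted p = 0.0493), and the call did not hold without any 1 of the 4 libraries (0.269 without KO replicate 1, 0.167 without KO replicate 2, 0.223 without WT replicate 1, 0.148 without WT replicate 2), with RLE scaling (0.0533) or with the stricter filter on low counts (0.0567). Keap1 (chr9:21229730-21239361, minus strand) encodes the adaptor that holds NRF2 for degradation, and had 64.4 and 55.6 CPM in KO, against 30.6 and 26.7 CPM in WT. The groups did not overlap, and the log2 fold change was 1.07 (SE 0.23, adjusted p = 0.00814). The Keap1 call was lost without KO replicate 1 (0.109) or WT replicate 2 (0.0838).

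Nqo1 (chr8:107388225-107403206, minus strand) encodes a quinone reductase that is widely used as a readout of NRF2. It had 22.2 and 26.5 CPM in KO, against 10.6 and 8.04 CPM in WT, and both KO libraries were the higher. The log2 fold change was 1.38 (SE 0.30, adjusted p = 0.00842), with the call lost without KO replicate 2 (0.0783) or WT replicate 2 (0.0854). Srxn1 (chr2:152105516-152111376, plus strand) encodes sulfiredoxin, which restores over-oxidised peroxiredoxins. Its level was 101.9 and 119.1 CPM in KO, against 48.8 and 42.5 CPM in WT, again without overlap. The log2 fold change of 1.27 (SE 0.23, adjusted p = 0.00211) was the only one among the 10 genes to keep its call under all 12 other settings tried.

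Gsr (chr8:33652523-33698163, plus strand) encodes glutathione reductase, which returns oxidised glutathione to its reduced form. It had 63.4 and 60.3 CPM in KO, against 32.5 and 36.9 CPM in WT. The KO libraries lay above the WT libraries, while the test gave a log2 fold change of 0.83 (SE 0.28, adjusted p = 0.0775). It passed when the 4 libraries were fitted alone (adjusted p = 0.0155). Gclc and Gclm encode the catalytic and modifier subunits of glutamate-cysteine ligase, the first step of glutathione synthesis. Gclc (chr9:77754535-77794485, plus strand) had 45.6 and 59.7 CPM in KO and 74.5 and 51.4 CPM in WT, which overlapped (log2 fold change -0.26, SE 0.27, adjusted p = 0.629). Gclm (chr3:122245557-122270732, plus strand) had 93.4 and 110.7 CPM in KO and 84.2 and 63.6 CPM in WT (0.46, SE 0.26, adjusted p = 0.305).

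Hmox1 (chr8:75093621-75100589, plus strand) encodes heme oxygenase, which degrades heme. Its libraries overlapped, with 36.5 and 53.3 CPM in KO and 32.6 and 37.9 CPM in WT (log2 fold change 0.35, SE 0.29, adjusted p = 0.535). Txnrd1 (chr10:82833951-82897712, plus strand), the cytosolic thioredoxin reductase, had 110.9 and 132.2 CPM in KO and 121.9 and 129.1 CPM in WT (-0.05, SE 0.22, adjusted p = 0.934). Prdx1 (chr4:116685544-116700822, plus strand), a peroxiredoxin that reduces hydrogen peroxide, had 1786 and 1516 CPM in KO and 1511 and 1431 CPM in WT (0.17, SE 0.39, adjusted p = 0.853). A missed threshold with 2 libraries a group does not show equal levels.

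Slc7a11 (chr3:49892526-50443614, minus strand) had 77.9 and 77.3 CPM in KO, against 2.93 and 6.11 CPM in WT. Both KO libraries were far above both WT libraries, with a log2 fold change of 4.12 (SE 0.36, adjusted p = 3.79e-06) that kept its call under all 12 other settings. Its change was larger than that of every one of the 10 genes, whose highest was the 2.60-fold of Nqo1.

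**Figure D2:**
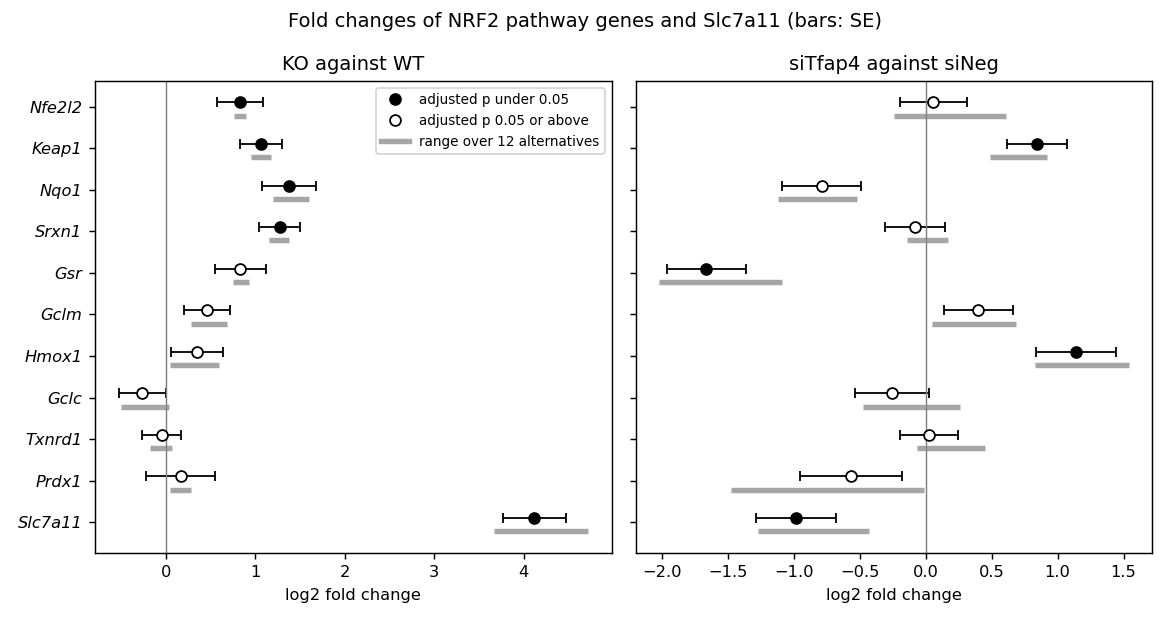
Log2 fold change (horizontal axis) with its SE for the 10 genes and Slc7a11, KO against WT and siTfap4 against siNeg. Filled points passed the test at an adjusted p below 0.05, open points did not, and grey bars span the 12 other settings. Slc7a11 lies at 4.12 and the 4 called genes at 0.83 to 1.38 in KO against WT, and Gsr lies lowest at -1.66 in siTfap4 against siNeg.

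Of 26 other known NRF2 targets with enough counts, 7 rose and 1 fell in KO, against 5.99% and 3.96% of all tested genes. The 7 include Slc7a11, and the list's median log2 fold change was 0.09. Mgst1, Abcc2, Gstp1, Aox1, Gstp2 and Ftl1 averaged only 0.72 to 1.35 CPM over the 8 libraries, so their part in that median is uncertain. Glutathione S-transferases, which conjugate glutathione to electrophiles, led the higher ones after Slc7a11. Gstm3 had 23.5 and 17.3 CPM in KO, against 2.19 and 4.46 CPM in WT (6.23-fold, log2 2.64, SE 0.37, adjusted p = 0.000313), and Gstm2 had 41.8 and 47.8 CPM in KO, against 10.5 and 11.8 CPM in WT (4.02-fold, adjusted p = 0.000462). Both pairs were separate and kept their calls under all 12 settings. Gstp2 is uncertain because its transcript end is identical to that of Gstp1. It had 21 and 17 counts in KO and 2 and 2 in WT (adjusted p = 0.0233). The Gstp2 call was lost in each fit with a library left out (log2 fold change 2.89 to 3.12). Of the 12 tested partners and regulators of NRF2, 0 passed by edgeR over all 8 libraries without a correction, 1 by DESeq2, and 3 at an unadjusted p below 0.05 (2 higher, 1 lower). Rbx1, a subunit of the CUL3 ligase, had 191.1 and 172.6 CPM in KO and 193.7 and 154.8 CPM in WT, which overlapped (adjusted p = 0.929). Sqstm1, whose p62 protein binds KEAP1, came nearest with 181.6 and 205.4 CPM in KO and 114.1 and 124.7 CPM in WT (log2 0.70, SE 0.22, adjusted p = 0.0597), and it was the gene that DESeq2 called (0.0480). Under edgeR it passed with the 4 libraries alone (0.0168) and with a correction for the GC content of transcript ends (0.0480). Sqstm1 and Rbx1 were named as the most abundant genes of a list without calls. That Sqstm1 came nearest was seen afterwards.

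Among 25 tested genes of cystine, cysteine and glutathione handling, 5 rose and 4 fell in KO, against 5.99% and 3.96% of all tested genes. The 5 include Slc7a11 itself. Cdo1, the dioxygenase that breaks down cysteine, had 39.7 and 54.3 CPM in KO, against 12.1 and 12.9 CPM in WT (3.76-fold, log2 1.91, SE 0.28, adjusted p = 0.000347). Chac1, which degrades glutathione, had 115.5 and 114.8 CPM in KO, against 24.8 and 60.8 CPM in WT (2.70-fold, adjusted p = 0.0111), a call lost without KO replicate 1 (0.0555), KO replicate 2 (0.0514) or WT replicate 1 (0.106). Cbs, which turns homocysteine into cystathionine, has a transcript end that is 32.9% shared with other transcripts. It fell to 13.7 and 18.8 CPM in KO, against 33.3 and 57.1 CPM in WT (log2 -1.47, SE 0.34, adjusted p = 0.0117). The Cbs call was lost without KO replicate 1 (log2 -1.26) or WT replicate 2 (log2 -1.04). Cth, which makes cysteine from cystathionine, rose to 296.5 and 262.5 CPM in KO, against 92.5 and 132.1 CPM in WT (2.49-fold, adjusted p = 0.0136). Cth is named for this comparison after its value was seen. The 5 and 4 calls were 3 and 0 without KO replicate 1, 4 and 1 without KO replicate 2, 3 and 2 without WT replicate 1, and 6 and 1 without WT replicate 2.

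The 16 thioredoxin and peroxiredoxin genes held 0 calls in KO by edgeR over all 8 libraries without a correction and 0 by DESeq2, against 1 higher call with the 4 libraries alone, with the GC correction or without WT replicate 2, and 3 were higher at an unadjusted p below 0.05, with a median log2 fold change of 0.09. Txn1 had 836.8 and 788.1 CPM in KO and 794.0 and 895.5 CPM in WT (adjusted p = 0.944), and Prdx6 had 484.2 and 383.9 CPM in KO and 328.2 and 335.2 CPM in WT (log2 0.39, SE 0.25, adjusted p = 0.385). Of 10 tested peroxide and superoxide genes, 1 rose and 1 fell, against 5.99% and 3.96% of all tested genes. Ccs, the copper chaperone of superoxide dismutase, had 106.6 and 111.3 CPM in KO, against 34.6 and 33.5 CPM in WT (3.20-fold, adjusted p = 0.000499). Gpx3, a secreted glutathione peroxidase, had 5.28 and 4.70 CPM in KO, against 26.5 and 17.9 CPM in WT (log2 -2.15, SE 0.33, adjusted p = 0.00063). Both kept their calls under all 12 settings. The list of NADPH supply was drawn broadly, with pentose phosphate and folate genes beside isocitrate dehydrogenases. Being listed does not show that an enzyme itself makes NADPH. Of 13 genes of NADPH supply 3 rose, Mthfd2, Rpia and Idh2, against 1 call in each fit with a library left out. Mthfd2, a mitochondrial folate enzyme, had 454.0 and 497.8 CPM in KO, against 221.7 and 176.6 CPM in WT (2.39-fold, adjusted p = 0.00371), a call lost without WT replicate 2 (0.0623). Rpia, of the pentose phosphate pathway and with 28.2% of its transcript end shared with other transcripts, had 17.2 and 22.4 CPM in KO, against 9.91 and 7.37 CPM in WT (adjusted p = 0.0339), and missed the threshold in each of those fits (0.0687 to 0.229). Idh2, a mitochondrial isocitrate dehydrogenase, had 225.9 and 245.5 CPM in KO, against 70.8 and 158.2 CPM in WT (adjusted p = 0.0408), and was lost without KO replicate 1 (0.130), KO replicate 2 (0.192) or WT replicate 1 (0.338), or with the 4 libraries alone (0.0899).

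ATF4, a factor induced by amino acid shortage and endoplasmic reticulum stress, shares Slc7a11 with NRF2. Of 18 ATF4 targets, the gene Atf4 among them, 8 rose in KO with a median log2 fold change of 0.93, and the count was 5 without KO replicate 1, 5 without KO replicate 2, 3 without WT replicate 1 and 7 without WT replicate 2. None fell by edgeR or DESeq2 or at an unadjusted p below 0.05. Slc7a11 and Chac1 are also in this list. Vldlr, a lipoprotein receptor, had 63.7 and 53.2 CPM in KO, against 6.09 and 11.4 CPM in WT (6.72-fold, log2 2.75, SE 0.35, adjusted p = 0.000131). Shmt2, the mitochondrial serine hydroxymethyltransferase, had 383.1 and 397.7 CPM in KO, against 128.8 and 170.2 CPM in WT (2.61-fold, adjusted p = 0.00143). Both calls held under all 12 settings. The lists overlap and were not tested against each other.

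**Figure D3:**
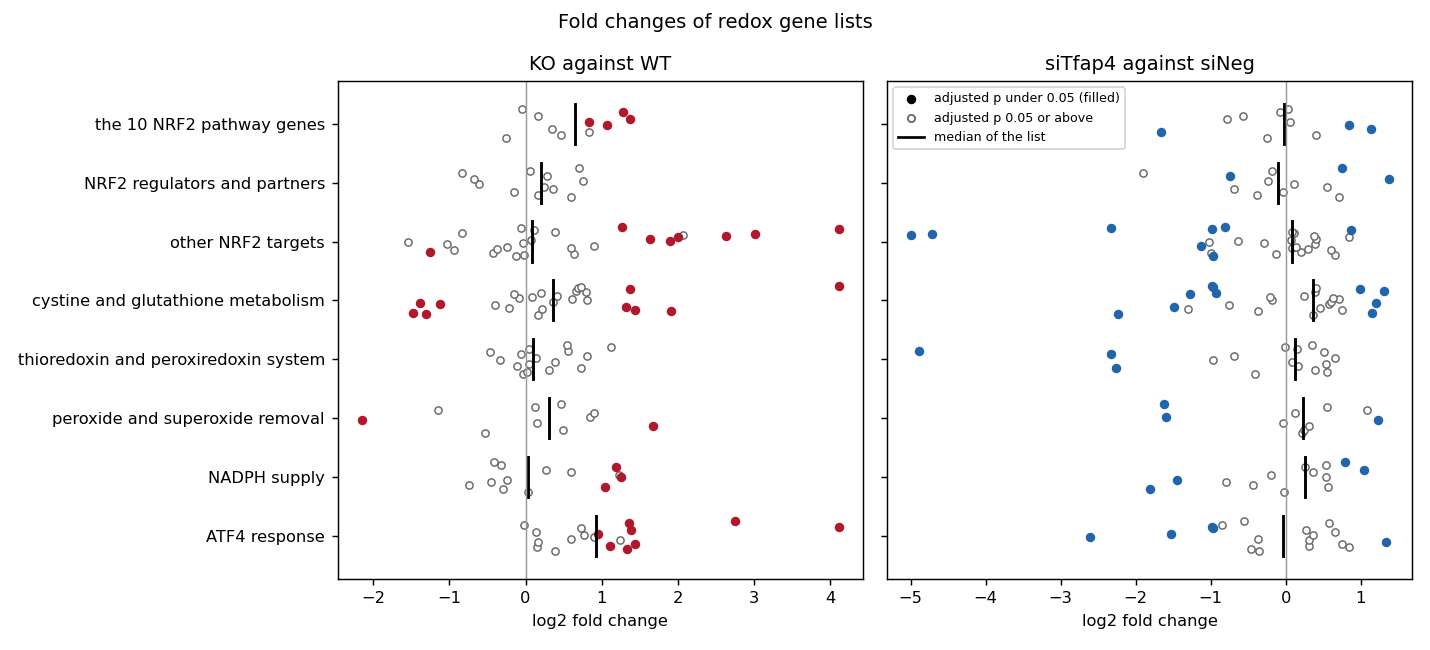
Log2 fold change (horizontal axis) of every tested gene in 8 gene lists, in both comparisons. Filled points passed at an adjusted p below 0.05, open points did not, and the black bar is the list median. In KO against WT the list medians run from 0.03 for NADPH supply to 0.93 for the ATF4 targets. The 10 genes have a median of 0.65 and the other NRF2 targets one of 0.09. Lists share genes and were not tested against each other.

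In siTfap4 cells 2 of the 10 genes rose, Keap1 and Hmox1, and 1 fell, Gsr, relative to siNeg. Slc7a11 also fell. The count of 3 was 1 without siTfap4 replicate 1, 5 without siTfap4 replicate 2 and 2 without either siNeg library. Of all 15137 genes 15.4% were called, 4.36% higher and 11.1% lower. The list counts given below for siTfap4 against siNeg are to be read beside these shares. The median log2 fold change of the 10 was -0.03, with 5 on each side of 0, and that of all genes was 0.01. Both comparisons used KO cells but no library in common.

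Within the embryonic stem cell markers, members moved apart in siTfap4, and those called are named after their values were seen. Dppa5a had 3.82 and 9.32 CPM in siTfap4, against 387.2 and 492.8 CPM in siNeg (66.3-fold lower, adjusted p = 1.4e-07). Nanog had 79.8 and 178.6 CPM in siTfap4, against 411.6 and 316.3 CPM in siNeg (2.82-fold lower, adjusted p = 0.00403). Pou5f1 had 59.0 and 48.4 CPM in siTfap4, against 25.2 and 27.7 CPM in siNeg (2.03-fold higher, adjusted p = 0.0121). The other 4 markers of the list, and the tested markers of primitive endoderm, fibroblasts and trophectoderm, did not pass. These marker calls were not examined with a library left out or with the correction for base composition described next. The part of these differences in the siTfap4 results was not tested.

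Fold changes in this comparison moved with the base composition of the transcript end. The median was -0.42 for tested genes with at most 30% GC in the last 100 bases and 0.39 for those with at least 45%, and 0.03 and 0.08 after a correction for it. In KO against WT the medians of such genes were 0.00 and -0.04. Gsr and Slc7a11 end in 23% GC and Keap1 in 54%, so their values with the correction are given beside the others.

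Gsr had 22.2 and 14.2 CPM in siTfap4, against 71.5 and 43.2 CPM in siNeg. Both siTfap4 libraries lay below both siNeg libraries, 3.17-fold lower by the fit (log2 fold change -1.66, SE 0.30, adjusted p = 0.00169). The call held under all 12 other settings, and the log2 fold change was -1.09 (adjusted p = 0.0189) with the GC correction. Keap1 had 170.2 and 155.0 CPM in siTfap4, against 86.0 and 94.9 CPM in siNeg. The groups did not overlap (log2 fold change 0.85, SE 0.23, adjusted p = 0.0204), but the call was lost with the GC correction (0.49, adjusted p = 0.151), with the 4 libraries alone (0.0680) and without siTfap4 replicate 1 (0.110) or siNeg replicate 1 (0.116).

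Hmox1 had 65.4 and 45.2 CPM in siTfap4, against 31.1 and 19.0 CPM in siNeg. The siTfap4 libraries were the higher, with a log2 fold change of 1.14 (SE 0.30, adjusted p = 0.0192) that was 1.20 with the GC correction. The Hmox1 call was lost without siTfap4 replicate 1 (0.217) or siNeg replicate 2 (0.129). Slc7a11 had 26.2 and 33.5 CPM in siTfap4, against 72.0 and 45.9 CPM in siNeg, without overlap (1.97-fold lower, log2 -0.98, SE 0.30, adjusted p = 0.0383). With the GC correction its log2 fold change was -0.43 (adjusted p = 0.321), and the call was also lost without siTfap4 replicate 1 (0.266) or siNeg replicate 1 (0.314).

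**Figure D4:**
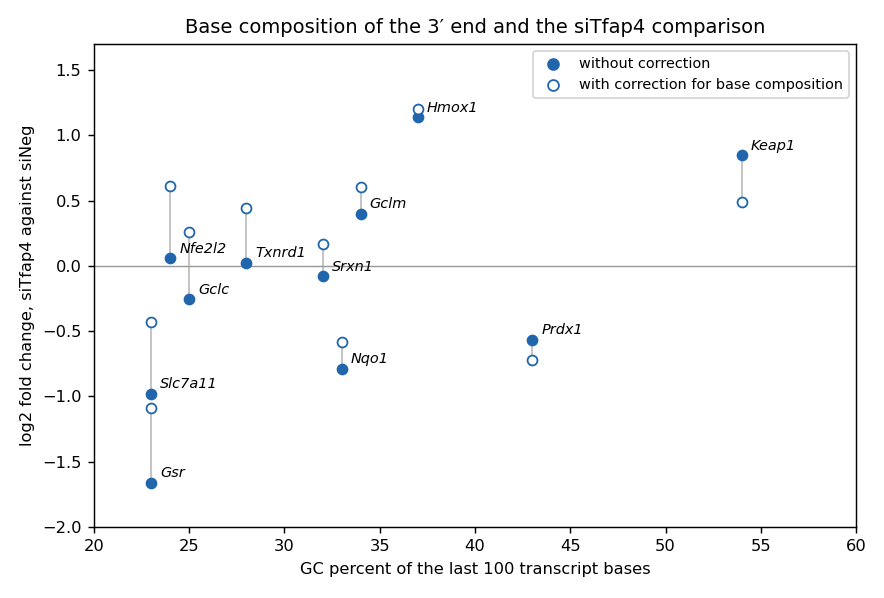
Log2 fold change, siTfap4 against siNeg (vertical axis), against the GC percent of the last 100 transcript bases (horizontal axis) for the 10 genes and Slc7a11, without (filled) and with (open) the correction for base composition. Gsr moves to -1.09 and Slc7a11 to -0.43, Keap1 moves to 0.49, and Hmox1 stays above 1.

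The other 7 genes did not pass. Nqo1 had 13.6 and 20.6 CPM in siTfap4 and 25.6 and 33.8 CPM in siNeg, lower in both siTfap4 libraries (log2 fold change -0.79, SE 0.30, adjusted p = 0.0813). It passed only without siTfap4 replicate 2 (0.0420). Nfe2l2 had 226.7 and 154.9 CPM in siTfap4 and 216.9 and 149.2 CPM in siNeg, with overlapping libraries (0.06, SE 0.25, adjusted p = 0.903). Srxn1, which rose in KO against WT, had 90.8 and 98.6 CPM in siTfap4 and 97.5 and 103.0 CPM in siNeg, also overlapping (-0.08, SE 0.23, adjusted p = 0.842). Txnrd1 overlapped as well, with 120.9 and 122.0 CPM in siTfap4 and 111.5 and 127.3 CPM in siNeg.

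The ligase subunits likewise missed the threshold. Gclc had 30.4 and 33.1 CPM in siTfap4 and 44.2 and 31.6 CPM in siNeg (log2 fold change -0.26, SE 0.28, adjusted p = 0.566). Gclm had 166.1 and 106.9 CPM in siTfap4 and 110.5 and 96.3 CPM in siNeg (0.40, SE 0.26, adjusted p = 0.311). Prdx1 differed more between duplicates than the other 9 genes did, with 660.9 and 1828 CPM in siTfap4 and 1336 and 2348 CPM in siNeg (-0.57, SE 0.39, adjusted p = 0.349). It passed without siTfap4 replicate 2 (-1.48, 0.00879).

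Of the 16 thioredoxin and peroxiredoxin genes 3 fell in siTfap4, and all 3 kept their calls under the 12 settings. Txnip, which binds and inhibits thioredoxin, had 8.79 and 12.97 CPM in siTfap4, against 366.0 and 278.1 CPM in siNeg (29.5-fold lower, log2 -4.88, SE 0.62, adjusted p = 0.000688). Txn1, thioredoxin itself, had 67.5 and 156.2 CPM in siTfap4, against 671.4 and 449.4 CPM in siNeg (5.01-fold lower, adjusted p = 0.000328). Prdx3, the mitochondrial peroxiredoxin, had 6.88 and 14.7 CPM in siTfap4, against 59.5 and 44.4 CPM in siNeg (4.78-fold lower, adjusted p = 0.00028). None of the list rose by edgeR without a block or by DESeq2, while 2 were higher at an unadjusted p below 0.05. The transcripts of Txnip, Txn1 and Prdx3 end in 25%, 30% and 25% GC. The list's median log2 fold change was 0.12, which lies on the other side of 0 from the called genes.

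Among the 12 partners and regulators Mafk and Sqstm1 rose and Nfe2l1 fell in siTfap4. Mafk, a small MAF partner of NRF2, had 9.05 and 7.67 CPM in siTfap4, against 3.43 and 3.0 CPM in siNeg (log2 1.37, SE 0.37, adjusted p = 0.0215). The Mafk call was lost without siTfap4 replicate 1 (0.168), siNeg replicate 1 (0.0945) or siNeg replicate 2 (0.0769). Sqstm1 had 276.2 and 232.9 CPM in siTfap4, against 142.7 and 161.4 CPM in siNeg (adjusted p = 0.0337), lost without siTfap4 replicate 1 (0.189) or siNeg replicate 1 (0.161). Nfe2l1, a relative of NRF2 that controls proteasome genes, had 63.6 and 59.0 CPM in siTfap4, against 109.7 and 94.5 CPM in siNeg (adjusted p = 0.0375), lost without siTfap4 replicate 1 (0.121), siTfap4 replicate 2 (0.0748) or siNeg replicate 1 (0.166). Both also missed the threshold with the GC correction (0.104 for Sqstm1, 0.0514 for Nfe2l1) and with the 4 libraries alone (0.116 for Sqstm1, 0.0913 for Nfe2l1), and Sqstm1 also with no filter on low counts (0.0607). Of the 26 other NRF2 targets 1 rose and 7 fell, and with the GC correction 3 fell. The 7 include Slc7a11 and Txn1, which are also counted in other lists. Without siTfap4 replicate 1 there were 2 that fell, and 3 without siNeg replicate 1. Cbr3, a carbonyl reductase, had 22.6 and 44.4 CPM in siTfap4, against 66.7 and 80.3 CPM in siNeg (adjusted p = 0.0265), lost with the correction (0.0518) and without siTfap4 replicate 1 (0.282), siNeg replicate 1 (0.0940) or siNeg replicate 2 (0.119). Gstp1 had 0 and 1 counts in siTfap4 and 30 and 21 in siNeg, and Gstp2 had 2 and 0 counts in siTfap4 and 42 and 35 in siNeg, values that may be shared between the identical ends.

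Of the 25 cystine and glutathione genes 4 rose and 6 fell, against 4.36% and 11.1% of all tested genes. The 6 include Slc7a11. With the GC correction 2 rose and 1 fell. Without siTfap4 replicate 1, or without siNeg replicate 1, 0 of the 25 passed in either direction by edgeR. Cth, which makes cysteine from cystathionine, had 59.6 and 137.1 CPM in siTfap4, against 284.6 and 267.0 CPM in siNeg (2.80-fold lower, log2 -1.49, SE 0.32, adjusted p = 0.00575), a call lost with the correction (0.0538) and without siTfap4 replicate 1 (0.0678) or siNeg replicate 1 (0.0574). Anpep, an aminopeptidase, had 0.382 and 1.53 CPM in siTfap4, against 5.91 and 3.29 CPM in siNeg (adjusted p = 0.0171), lost without siTfap4 replicate 1 (0.238) or siNeg replicate 1 (0.168). Hagh, which completes the glyoxalase pathway, had 5.35 and 15.6 CPM in siTfap4, against 24.8 and 26.4 CPM in siNeg (adjusted p = 0.0267), lost without siTfap4 replicate 1 (0.268), siNeg replicate 1 (0.121) or siNeg replicate 2 (0.0935), and with the GC correction (-0.89, adjusted p = 0.102). Oplah, the oxoprolinase of the glutathione cycle, rose to 24.8 and 15.9 CPM in siTfap4, against 8.23 and 8.23 CPM in siNeg (adjusted p = 0.0117), lost with the GC correction (0.93, adjusted p = 0.0529) and without siTfap4 replicate 1 (0.177) or siNeg replicate 1 (0.0869). The transcript end of Oplah is 89.4% shared with Smpd5, a gene that overlaps it on the other strand. Whether their counts mix depends on the strand setting, which is not given.

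Of the 10 peroxide and superoxide genes 1 rose and 2 fell, the 2 being Sod2 and Gpx4, whose transcript ends are shared with other sequences and whose values are uncertain. Gpx3 had 9.17 and 7.78 CPM in siTfap4, against 2.91 and 4.35 CPM in siNeg (adjusted p = 0.0396), a call lost without siTfap4 replicate 1 (0.251), siTfap4 replicate 2 (0.0590), siNeg replicate 1 (0.240) or siNeg replicate 2 (0.0507). With the GC correction its log2 fold change was 0.85 (adjusted p = 0.140), and with the 4 libraries alone the adjusted p was 0.0651. Of the 13 NADPH genes 2 rose and 2 fell, against 4.36% and 11.1% of all tested genes. Idh1, the cytosolic isocitrate dehydrogenase, had 15.4 and 57.6 CPM in siTfap4, against 119.8 and 135.7 CPM in siNeg (adjusted p = 0.0150), lost without siNeg replicate 1 (0.0518), with the 4 libraries alone (0.0650) or with no filter on low counts (0.129). The pentose phosphate genes Pgls and Tkt rose (adjusted p = 0.0113 and 0.0458). Pgls had 190.1 and 145.8 CPM in siTfap4, against 64.7 and 98.0 CPM in siNeg, and its call was lost without siTfap4 replicate 1 (0.120) or siNeg replicate 1 (0.123). The call of Tkt was lost without siTfap4 replicate 1 (0.292), siNeg replicate 1 (0.120) or siNeg replicate 2 (0.164), with the 4 libraries alone (0.0956) or with no filter on low counts (0.0536). Mthfd1, a cytosolic folate enzyme, had 47.8 and 98.5 CPM in siTfap4, against 190.9 and 208.9 CPM in siNeg (2.73-fold lower, adjusted p = 0.00312), and kept its call under all 12 settings.

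Of the 18 ATF4 targets 1 rose and 4 fell in siTfap4, with a median log2 fold change of -0.04, and 2 fell with the GC correction, as also without siTfap4 replicate 1 or siNeg replicate 1. Ddit3, a stress factor, rose to 61.7 and 33.6 CPM in siTfap4, against 20.0 and 17.6 CPM in siNeg (adjusted p = 0.0327), a call lost with the correction (0.0671), with no filter on low counts (0.0586) and without siTfap4 replicate 1 (0.349), siNeg replicate 1 (0.154) or siNeg replicate 2 (0.136). Slc7a11 is among the 4 that fell. Psph, which makes serine, had 40.3 and 56.5 CPM in siTfap4, against 161.6 and 118.3 CPM in siNeg (2.89-fold lower, log2 -1.53, SE 0.26, adjusted p = 0.00117). Phgdh, the first enzyme of serine synthesis, had 8.54 and 15.8 CPM in siTfap4, against 54.3 and 95.0 CPM in siNeg (6.10-fold lower, adjusted p = 0.000129). Both kept their calls under all 12 settings, and 26.5% of the end of Phgdh is shared with other transcripts.

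Across the 4 groups, Keap1 averaged 60.0 ± 6.21 CPM in KO and 28.6 ± 2.76 in WT, and 162.6 ± 10.8 in siTfap4 and 90.4 ± 6.24 in siNeg (SD, n = 2 each). In order siTfap4 was highest, then siNeg, KO and WT, with no overlap between neighbours. Gsr averaged 61.8 ± 2.19 CPM in KO and 34.7 ± 3.13 in WT, and 18.2 ± 5.67 in siTfap4 and 57.4 ± 20.1 in siNeg (SD, n = 2 each). Its libraries in siNeg and KO overlapped, and those of siTfap4 were the lowest. Nqo1 averaged 24.3 ± 3.04 CPM in KO and 9.30 ± 1.78 in WT, and Srxn1 averaged 110.5 ± 12.1 CPM in KO and 45.7 ± 4.39 in WT (SD, n = 2 each). The mean in siNeg over that in untreated KO was 1.51 for Keap1, 0.558 for Hmox1, 0.721 for Gclc, 0.759 for Slc7a11 and between 0.907 and 1.22 for the other 7 genes. Transfection and sample set differ together between those groups and cannot be told apart.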

How the data were processed

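The 3′ end counts per gene were deposited as whole numbers in a single table of 8 libraries. Per the labels' protocols, QuantSeq 3′ mRNA libraries were made from 500 ng of RNA. Trim Galore and the build GRCm38 are named in the submitters' processing notes, with aligner, counter, strand setting and annotation release each not given in the sources used here. Counts were tested with edgeR 4.0.16 (quasi-likelihood, TMM, filterByExpr, 4 group means over all 8 libraries, Benjamini-Hochberg adjustment over 15137 genes), and CPM uses TMM library sizes. SEs come from the log2 fold change and its F statistic. The 12 other settings were DESeq2 1.42.0, RLE scaling, no filter, at least 1 CPM in at least 4 libraries, the 4 libraries alone, a replicate block, a GC correction, block with GC, and each library left out. Places and 3′ UTRs come from GENCODE M21. Shared stretches of 31 bases within the last 200 of a transcript were sought on both strands. The members and gene lists were chosen with earlier results of these data known. Named genes were the members and, in each list, those called with the largest absolute log2 fold changes, plus the most abundant genes of a list without calls. Methods were tested on simulated data.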

Additional observations from a re-analysis of the deposited data

How the results depend on the processing

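For the named genes, 62 fold changes were compared under every setting, and none of the 45 called ones reversed. Of the 45, 17 kept their call under every setting that gave a value, and of the 17 that were not called, 13 stayed so. With 1 library left out, KO against WT had 610 to 857 calls in place of 1506 and the 10 genes 1 to 3. The counts were 610 and 681 without KO replicate 1 and 2, and 857 and 774 without WT replicate 1 and 2. In siTfap4 against siNeg 499 to 2987 calls were made in place of 2334, with 499 without siTfap4 replicate 1 and 732 without siNeg replicate 1, and 1 to 5 of the 10 genes. The differences between replicates 1 and 2 correlated at -0.06 between KO and WT and at 0.13 between siTfap4 and siNeg. Whether replicate numbers pair the libraries was not tested. With a replicate block, 1337 and 2064 genes were called in the 2 comparisons, and 4 and 3 of the 10 genes, and the calls of Rpia in KO (adjusted p = 0.0763) and of Slc7a11 (0.0686) and Gpx3 (0.0513) in siTfap4 were lost. With the replicate block and the GC correction together, Gsr in KO (0.84, 0.0346), Sqstm1 in KO (0.0445) and Prdx1 in siTfap4 (-0.87, 0.0211) passed, 1 thioredoxin or peroxiredoxin gene rose in siTfap4, and in siTfap4 the calls of Keap1 (0.126), Slc7a11 (0.309), Mafk (0.0505), Sqstm1 (0.0922), Oplah (0.0521), Gpx3 (0.120) and Ddit3 (0.0590) were lost. List counts under other settings were added after seeing the data. The 2 libraries a group left 4 residual degrees of freedom.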
